A study of Danio rerio with 18 samples.

Results

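The Runx+ and negative cell fractions of Lycorine-treated zebrafish embryos were compared on 6 arrays, 3 for each fraction, out of 18 arrays in all. The arrays were chosen by their labels alone, as the Lycorine-treated arrays of either sort. Embryos were of the AB strain and carried the transgenes Runx1+23:GFP, a GFP reporter of a Runx1 enhancer, and kdrl:DsRed2, a DsRed2 reporter of an endothelial receptor gene. They were kept in 75 µM Lycorine with 1% DMSO from 2 days post fertilization (dpf), dissociated with an enzyme mix at 3 dpf and sorted by fluorescence. Runx+ cells were collected for the enhancer reporter, kdrl+ cells for the endothelial reporter, and negative cells for the absence of both. Control embryos of the same genotype received 1% DMSO alone over the same period and gave the same 3 fractions, so DMSO was common to all groups. Between the cells and every value below stood an amplification of the RNA and its labelling with biotin. The titles number the 3 arrays of each group as biological replicates. The cells of each array came from pooled embryos, and the labels do not say whether arrays that share a replicate number came from the same pool. The p-values measure the spread between these pooled arrays, and how much of it is technical is not known. The reporter transcripts are not genes of the array.

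Primitive red cells of the zebrafish embryo make embryonic alpha and beta globins and heme, and circulate in large numbers at this age. Blood stem and progenitor cells (HSPC) arise from the wall of the dorsal aorta, depend on runx1 and myb, and seed the caudal hematopoietic tissue. Photoreceptors answer light through a cascade in which an opsin activates the G protein transducin, transducin relieves the inhibition of a cyclic GMP phosphodiesterase, and guanylate cyclase restores the cyclic GMP. Lycorine is an alkaloid of Amaryllidaceae plants known to inhibit protein synthesis.

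Values are log2 expression levels, differences are log2 values of Runx+ minus negative cells given with their standard error (SE), and adjusted p is from limma with Benjamini-Hochberg adjustment over 19247 genes. Array medians lay between 4.87 and 5.12. The Lycorine arrays were close replicates: correlations over genes were 0.961 to 0.980 among Runx+ arrays, 0.976 to 0.984 among negative arrays and 0.975 to 0.982 among kdrl+ arrays. DMSO replicates spread more, with correlations of 0.872 to 0.936 (Runx+) and 0.921 to 0.962 (negative) and a root mean square SD of 0.54 and 0.44, against 0.33 and 0.26 with Lycorine.

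Under Lycorine, 3 globins and 4 other red cell genes were lower in Runx+ than in negative cells, while 5 cone genes, a phosducin gene and a fast muscle myosin were among the genes that were higher. Of the 19247 genes, 33 (0.171%) passed an adjusted p of 0.05. Higher in Runx+ cells were 26 genes (0.135%) and lower were 7 (0.0364%). The difference of the called genes ran from 0.94 to 2.85 in size, against a median size of 0.16 over all genes, and the median SE was 0.197. The 3 Runx+ arrays did not overlap with the 3 negative arrays for any of the 33, and neither did they for 13.4% of all genes. The number of calls rested on having all 6 arrays. Leaving out Runx+ replicate 1, 2 or 3 left 0, 0 and 5 genes higher and 4, 5 and 6 lower, and leaving out negative replicate 1, 2 or 3 left 0, 3 and 11 higher and 3, 18 and 5 lower. All 7 lower genes stood in the lists of globins or of heme synthesis and red cell genes, which were compiled with earlier results of these data known.

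The largest difference was in hbbe2, an embryonic beta globin. Its level was 8.45, 8.98 and 8.11 in the Runx+ arrays and 11.33, 11.47 and 11.30 in the negative arrays. Every Runx+ array was far below every negative array, and the difference was -2.85 ± 0.22 (adjusted p = 0.000272, n = 3 arrays per group, limma), 7.22-fold lower. The embryonic alpha globin hbae3 read 9.86, 10.33 and 9.67 in Runx+ cells and 12.04, 12.24 and 11.99 in negative cells. It was lower by a difference of -2.14 ± 0.21 (adjusted p = 0.00211, limma), or 4.40-fold. A further alpha globin, hbae1.1, was among the brightest genes of the array, at 11.06, 11.57 and 11.37 in Runx+ cells and 12.68, 12.81 and 12.65 in negative cells. The groups stood clear of each other here too, with a difference of -1.38 ± 0.18 (adjusted p = 0.0114, limma), and another row of the same gene gave -1.96. In bulk samples like these, fewer red cells in a sort and less globin RNA per cell cannot be told apart.

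The globin list had 15 entries, of which 7 were measured by a named row. Of these, 3 were lower, none was higher, and the median difference was -1.07, against 0.01 over all genes. The remaining members did not pass: hbae4 differed by -1.07 (adjusted p = 0.196, limma), hbbe3 by -0.79 (adjusted p = 0.160), and the adult-type genes hbba2 and hbaa2 by -0.18 and 0.23. Globin genes are close copies of one another, and cross-hybridisation between their probes was not tested. The mean level of the list was 6.26 to 6.42 in the Runx+ arrays and 7.27 to 7.69 in the negative arrays, with no overlap.

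Among 24 measured genes of heme synthesis and red cells, 4 were lower and none was higher, with a median difference of -0.14. alas2, the first enzyme of heme synthesis in red cells, read 4.35, 4.52 and 4.99 in Runx+ cells and 6.31, 6.91 and 6.68 in negative cells, a difference of -2.02 ± 0.21 (adjusted p = 0.00224, limma). Its Runx+ levels were near the array medians and its negative levels well above them. hemgn, a nuclear protein of erythroid cells, read 5.38, 5.72 and 5.56 against 7.12, 7.29 and 6.91, a difference of -1.55 ± 0.20 (adjusted p = 0.0114, limma). The groups were again separate. The nucleotidase gene nt5c2l1 was lower by -1.27 ± 0.20 (adjusted p = 0.0407, limma). epb41b, which encodes protein 4.1 of the red cell membrane skeleton, was lower by -1.17 ± 0.18 (adjusted p = 0.0341, limma), with levels of 3.39 to 3.95 in Runx+ and 4.74 to 4.97 in negative cells, low on this array. The count of 4 fell to 1 without Runx+ replicate 1 or negative replicate 1, and to 2 without Runx+ replicate 2 or negative replicate 2 or 3. alas2 kept its call and nt5c2l1 lost it, whichever of the 6 arrays was left out.

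The rest of the red cell list was mixed. Chosen after their values were seen, the anion exchanger slc4a1a (-1.20, adjusted p = 0.0994, limma) and the red cell carbonic anhydrase cahz (-1.11, adjusted p = 0.0862) came close to the threshold without passing. The red cell transcription factors gata1a (-0.08) and klf1 (-0.36) and the last enzyme of heme synthesis, fech (0.36), were far from it. The list thus held a few genes with large differences and many with small ones. The mean level of the list was 5.70 to 5.87 in Runx+ and 6.10 to 6.24 in negative arrays.

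**Figure D1:**
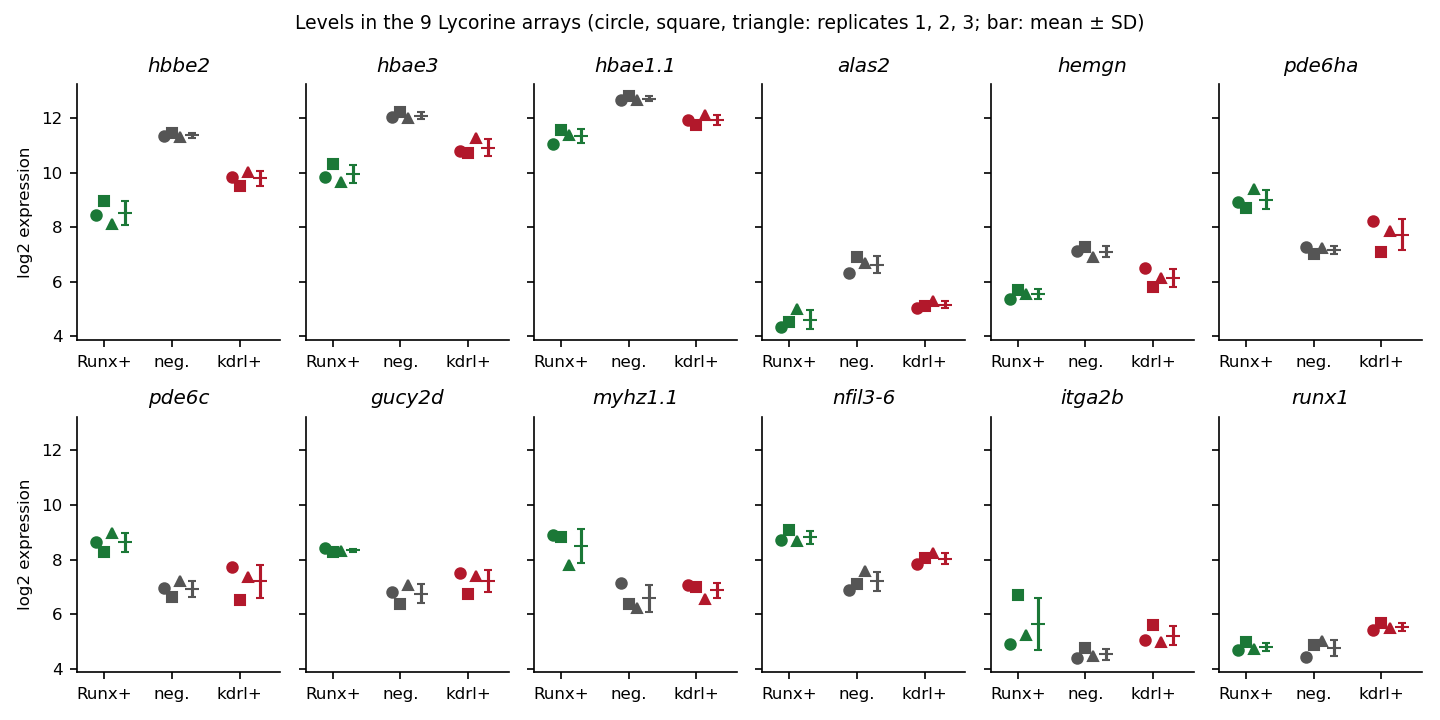
Log2 expression of 12 genes (y axis) in the Lycorine-treated Runx+, negative and kdrl+ sorts (x axis), 3 arrays each, with the mean ± SD beside the points. hbbe2, hbae3, hbae1.1, alas2 and hemgn were lowest in Runx+ arrays, the photoreceptor genes pde6ha, pde6c and gucy2d and the muscle gene myhz1.1 were highest there, and the runx1 arrays of Runx+ and negative cells overlapped.

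Photoreceptor genes made up the largest recognisable group among the higher genes. In the cone list, 5 of 22 measured genes passed as higher and none as lower. pde6ha, the inhibitory subunit of the cone phosphodiesterase, read 8.93, 8.70 and 9.39 in Runx+ cells and 7.29, 7.02 and 7.24 in negative cells, a difference of 1.82 ± 0.27 (adjusted p = 0.0251, limma). pde6c, its catalytic subunit, read 8.63, 8.29 and 8.98 against 6.94, 6.64 and 7.22, a difference of 1.70 ± 0.29 (adjusted p = 0.0437, limma). Every Runx+ array was above every negative array for both subunits. gucy2d, a guanylate cyclase of photoreceptors, read 8.41, 8.29 and 8.31 against 6.82, 6.38 and 7.06 and was higher by 1.58 ± 0.23 (adjusted p = 0.0237, limma), and another row of it gave 1.08. The cone transducin subunit gnb3b was higher by 1.60 ± 0.28 (adjusted p = 0.0453, limma) and the cone opsin kinase grk7a by 1.59 ± 0.26 (adjusted p = 0.0423, limma).

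The called cone genes were thus of the phosphodiesterase, the cyclase, transducin and the opsin kinase, and no opsin was among them. The opsins differed by 1.12 for opn1sw1 (ultraviolet, adjusted p = 0.123, limma), 1.04 for opn1sw2 (blue, adjusted p = 0.0866), 0.45 for opn1mw1 (green), and 0.76 and 0.10 for opn1lw2 and opn1lw1 (red). All 22 cone genes had a positive difference, from 0.10 to 1.82 with a median of 0.91, and 18 of the 22 were higher with no overlap between the groups, as were 7.49% of all genes. The mean level of the cone list was 8.08, 7.98 and 8.13 in the Runx+ arrays and 7.07, 6.90 and 7.29 in the negative arrays.

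No rod gene passed the test in the main fit, although the rod list differed by as much as the cone list. Its median difference was 0.97 over 22 measured genes, 21 were positive, and 19 were higher with no overlap, against 7.49% of all genes. prph2b, a disc rim protein of the outer segment and the member of the rod list with the largest moderated t, read 9.85, 9.12 and 9.87 in Runx+ cells and 8.18, 7.18 and 8.25 in negative cells. The groups did not overlap, and the difference of 1.74 ± 0.33 had an adjusted p of 0.0689 (limma). The mean level of the rod list was 7.51 to 7.78 in Runx+ and 6.47 to 6.94 in negative arrays. A p that misses the threshold here does not show that rod genes were equal. Rod calls numbered 2 in a fit to the 6 arrays compared, 5 with a replicate block and 12 with array weights. They numbered 6 with arrays centred on their median, 1 with cyclic loess and 3 with a second quantile normalization. Cone calls under the same settings, in that order, were 6, 9, 9, 8, 4 and 6. A fit to all 18 arrays called 0 genes of either list.

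Of 19 measured genes shared by photoreceptors and the pineal gland, 1 passed. pdcb, a phosducin that binds transducin subunits, was higher by 1.42 ± 0.22 (adjusted p = 0.0405, limma), with 8.22, 8.34 and 8.29 in Runx+ cells against 6.94, 6.56 and 7.07 in negative cells. The median of the list was 0.95 and 14 members were higher with no overlap, against 7.49% of all genes. The photoreceptor calls rested on having all 6 arrays. Without any one of Runx+ replicates 1, 2 and 3 or negative replicates 1 and 2, the number of cone genes called was 0. Without negative replicate 3 it was 3. The single call in the shared list was lost without any one of the 6 arrays. The median of the cone list stayed between 0.80 and 1.07 in these fits. Whether the Runx+ sort held photoreceptor cells was not tested.

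Several other genes that were higher are known from photoreceptor or neuronal synapses and membranes. slc17a7b, a vesicular glutamate transporter, was higher by 1.52 ± 0.22 (adjusted p = 0.0238, limma), with 7.41, 7.71 and 7.71 in Runx+ cells against 5.95, 6.01 and 6.31. The glutamate transporter slc1a2a differed by 1.62 ± 0.27 (adjusted p = 0.0437), the potassium-dependent sodium-calcium exchanger slc24a2 by 1.5 ± 0.25 (adjusted p = 0.0437) and the synaptic vesicle gene sv2ba by 1.38 ± 0.24 (adjusted p = 0.0493, all limma). Beyond the 15 largest rises, cdhr1a, whose mouse counterpart is a photoreceptor cadherin, was higher by 1.15. The calcium channel subunit gene cacna2d4b differed by 1.14, the guanylate cyclase activator gene guca1ab.2 by 1.3, and reep6 and lrit1b by 1.27 and 1.23. These genes were in no list, so their grouping is a description made after the values were seen.

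The general neural list was divided. None of its 33 measured genes passed, the median difference was -0.30, and 25 were negative. Lower with no overlap were 10, against 5.94% of all genes, and higher with no overlap were 5, against 7.49%. Its member of largest moderated t was sypb, a synaptophysin of synaptic vesicles, with a difference of 1.05 ± 0.23 that did not pass (adjusted p = 0.0964, limma). The neural list had a mean level of 7.38 to 7.52 in Runx+ and 7.58 to 7.76 in negative arrays.

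**Figure D2:**
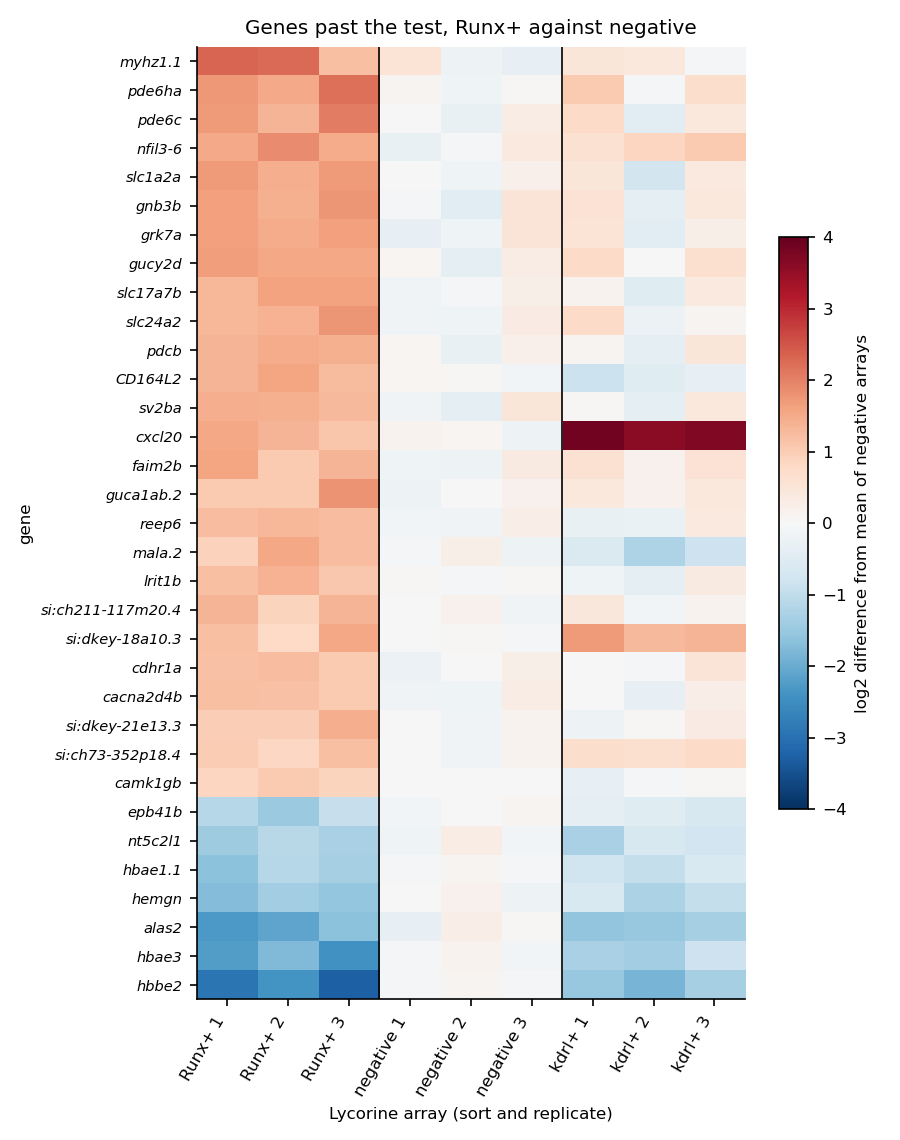
Log2 difference of each Lycorine array from the mean of the negative arrays (colour) for the 33 genes past the test (y axis), in the Runx+, negative and kdrl+ arrays (x axis). Of the 26 higher genes, 4 passed as higher and 2 as lower in kdrl+ against negative cells, where 10.5% and 13.6% of all genes did. Among the 26, cxcl20 was the most raised in kdrl+ cells. The 7 lower genes had kdrl+ means between those of the other sorts.

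The gene with the largest rise was myhz1.1, a myosin heavy chain of fast muscle. It read 8.90, 8.84 and 7.79 in Runx+ cells and 7.13, 6.36 and 6.24 in negative cells, a difference of 1.93 ± 0.31 (adjusted p = 0.0407, limma). Runx+ replicate 3 was the lowest of its group and still above all negative arrays. It was the 1 call among 37 measured fast muscle genes, whose probes may share signal with other myosins. The list's median was 0.53, with 33 positive members. With no overlap, 10 were higher and 1 was lower, against 7.49% and 5.94% of all genes. The median of the list was 0.25 without Runx+ replicate 1 and 0.93 without Runx+ replicate 3. In that last array the mean level of the list, 7.17, lay within the negative arrays (7.01 to 7.46), while Runx+ replicates 1 and 2 were at 8.37 and 7.88. The call of myhz1.1 itself was lost without Runx+ replicate 1 or 2 or any one of the negative arrays. Of 18 genes of slow and heart muscle none passed, with a median of 0.47, and myh7 led by t with 0.79 ± 0.20 (adjusted p = 0.134, limma).

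Other genes called higher belonged to no one group. nfil3-6, a bZIP transcription factor of the Nfil3 family, read 8.70, 9.10 and 8.67 in Runx+ cells and 6.89, 7.12 and 7.58 in negative cells, a difference of 1.63 ± 0.21 (adjusted p = 0.0114, limma). CD164L2 read 7.02, 7.23 and 6.92 against 5.73, 5.72 and 5.55, a difference of 1.39 ± 0.18 (adjusted p = 0.0114, limma). The chemokine gene cxcl20 read 6.15, 5.99 and 5.72 against 4.77, 4.68 and 4.40 and was higher by 1.34 ± 0.18 (adjusted p = 0.0116, limma). faim2b, of a family of inhibitors of cell death, was higher by 1.33 ± 0.21 (adjusted p = 0.0407, limma). In these genes the Runx+ arrays were above the negative arrays without exception. The remaining calls, all between 0.94 and 1.23, were mala.2, camk1gb, si:ch211-117m20.4, si:dkey-18a10.3, si:dkey-21e13.3 and si:ch73-352p18.4.

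The label of the Runx+ sort was checked against genes of HSPC. None of 23 measured HSPC genes passed the test, their median difference was 0.02, and 12 were positive and 11 negative. runx1 read 4.70, 4.98 and 4.72 in Runx+ cells and 4.42, 4.85 and 5.0 in negative cells. The groups overlapped, with a difference of 0.04 ± 0.19 (adjusted p = 0.977, limma), and another row of runx1 gave 0.13. The sign of this small difference changed under other settings. myb, a factor required in definitive HSPC, differed by 0.68 ± 0.22 (adjusted p = 0.271), tal1 by -0.47, lmo2 by -0.16, gata2b by -0.31, gfi1aa by 0.10 and ptprc by 0.11. None of these transcripts passed as different between the Runx+ and negative sorts, against what the label leads one to look for, so the sort is called here by its reporter. A p that misses the threshold does not show that they were equal. With no overlap, 1 of the 23 genes was higher, itga2b, and 3 were lower, against 7.49% and 5.94% of all genes.

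myb had the largest moderated t of the list. itga2b, the CD41 integrin of HSPC and thrombocytes, read 4.91, 6.71 and 5.25 in Runx+ cells and 4.38, 4.75 and 4.45 in negative cells, a difference of 1.09 ± 0.37 (adjusted p = 0.288, limma). Runx+ replicate 2 stood high, the difference without it was 0.55, and the lowest Runx+ array was only just above the highest negative array. Of 13 thrombocyte genes none passed, and the median was 0.14. fermt3b, a kindlin of blood cells, had the value 1.04 ± 0.32 (adjusted p = 0.230, limma). The HSPC list stood higher in the kdrl+ arrays than in either of the other sorts. It shares fli1a and erg with the endothelial list, and how much of this level came from endothelial or from blood cells was not tested. Against negative cells, 16 of 23 HSPC genes were called higher in kdrl+ cells and 0 lower. The neutrophil and macrophage list gave the same counts, 16 of 23 and 0. Of all genes, 10.5% were called higher and 13.6% lower. Red cell genes differed from this, with 4 of 7 globins called lower in kdrl+ cells. The mean level of the HSPC list was 5.79 to 6.12 in Runx+, 5.87 to 5.99 in negative and 7.22 to 7.46 in kdrl+ arrays, and runx1 read 5.43, 5.69 and 5.48 there.

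Endothelial genes leaned to the higher side in Runx+ cells without a call. None of 40 passed, the median difference was 0.29, and 28 were positive and 12 negative. With no overlap, 9 were higher and 0 were lower, against 7.49% and 5.94% of all genes. kdrl read 6.75, 6.36 and 6.91 in Runx+, 5.74, 6.18 and 6.66 in negative and 10.63, 10.95 and 10.94 in kdrl+ cells. pecam1a, an adhesion molecule of endothelium, differed by 1.05 ± 0.24 between Runx+ and negative cells (adjusted p = 0.101, limma). Among 24 genes of niche adhesion and chemokine signalling none passed. cxcl12a, the chemokine that holds HSPC in their niche, read 8.72, 7.62 and 7.93 in Runx+ and 9.95, 8.90 and 9.17 in negative cells, a difference of -1.25 ± 0.32 (adjusted p = 0.141, limma). The kdrl+ arrays read 9.33, 8.52 and 8.84, so all 3 sorts were highest in replicate 1 and lowest in replicate 2. A fit without pairs leaves this shared order in the error, so the SE and p here can be too large.

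Genes of mesenchyme and cartilage were all on the lower side without a call. All 30 measured members had a negative difference, with a median of -0.70, and 4 of 30 were lower with no overlap, against 5.94% of all genes. fbln1, an extracellular matrix fibulin, read 7.27, 6.47 and 6.02 in Runx+ and 7.95, 7.88 and 8.12 in negative cells, a difference of -1.40 ± 0.26 (adjusted p = 0.0681, limma). For the list as a whole the negative arrays disagreed among themselves, with mean levels of 8.51 and 8.29 in replicates 1 and 3 and 7.56 in replicate 2, below Runx+ replicate 1 at 7.82. Without negative replicate 2, and likewise without Runx+ replicate 1, there was 1 call in the list.

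**Figure D3:**
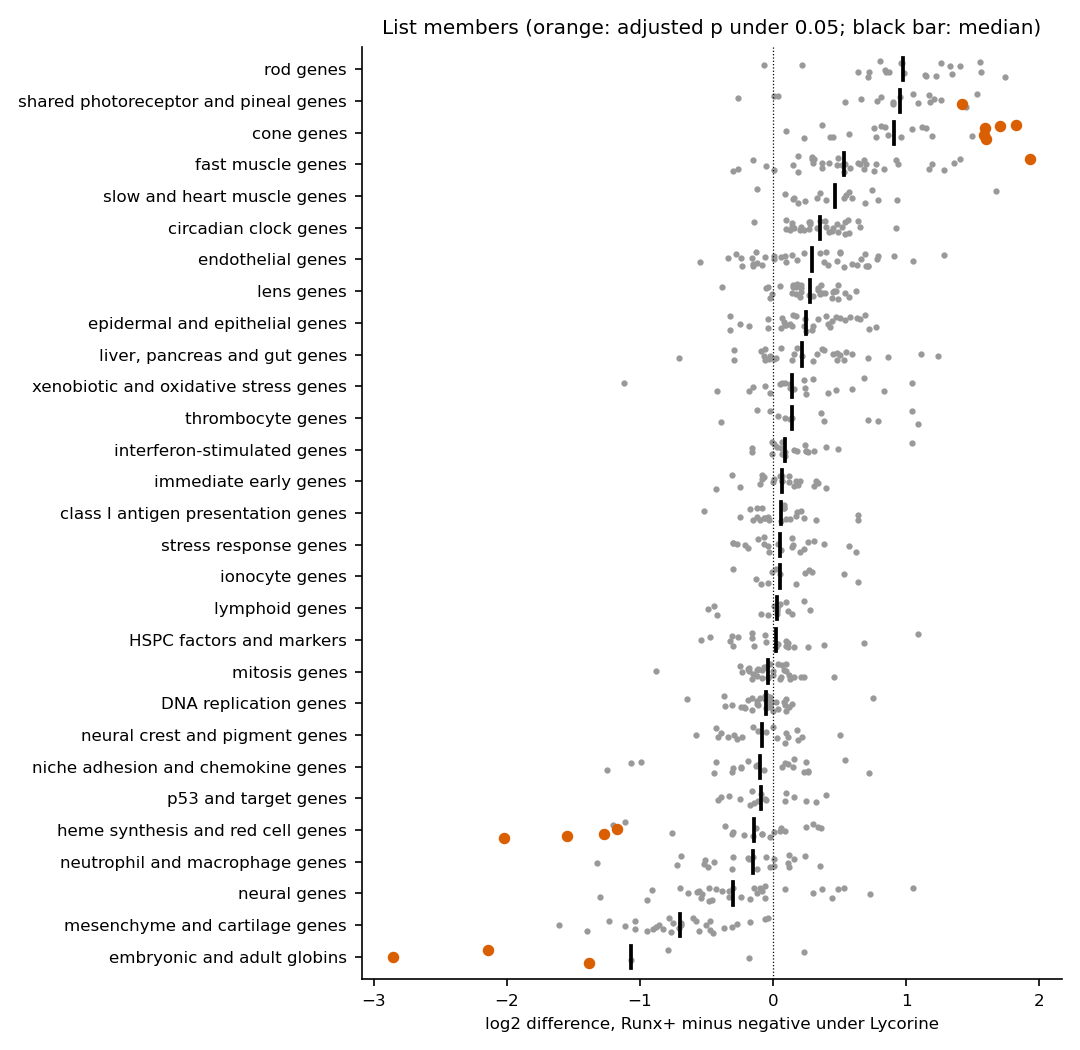
Log2 difference of Runx+ minus negative cells under Lycorine (x axis) for the measured members of 29 gene lists (y axis), each point a gene, with list medians as bars. The 5 lists with a call were the 2 red cell lists on the left and the cone, shared photoreceptor and fast muscle lists on the right, and the mesenchyme list lay wholly below 0.

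Among the remaining lists, none had a call. Of 31 circadian clock genes 30 were positive, with a median of 0.35, and hlfa, a PAR bZIP factor, differed by 0.64 ± 0.15 (adjusted p = 0.116, limma). Medians were 0.27 for 34 lens genes, 0.25 for 34 epidermal and epithelial genes, 0.22 for 31 genes of liver, pancreas and gut, -0.15 for 23 neutrophil and macrophage genes and 0.03 for 16 lymphoid genes. The macrophage gene mpeg1.1 differed by -0.69 ± 0.22 (adjusted p = 0.268, limma). For genes of cell division and stress the medians were near 0, at -0.05 for DNA replication, -0.04 for mitosis, -0.09 for p53 and its targets, 0.05 for stress response and 0.07 for immediate early genes. Class I antigen presentation genes had a median of 0.06 over 25 members and interferon-stimulated genes 0.09 over 22. The class I gene mhc1haa read 6.28, 6.51 and 5.99 in Runx+ and 5.62, 5.51 and 5.73 in negative cells, a difference of 0.64 ± 0.19 that did not pass (adjusted p = 0.222, limma).

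The kdrl+ arrays of the same treatment place these differences among the 3 sorts. Contrasts with kdrl+ cells share the Runx+ or the negative arrays with the comparison above, so their values are given side by side and not as further evidence. Runx+ and kdrl+ cells differed in 27.7% of genes (15.8% higher in Runx+, 11.9% lower), and kdrl+ and negative cells in 24.1% (10.5% higher in kdrl+, 13.6% lower). hbbe2 read 9.84, 9.51 and 10.04 in kdrl+ cells, between the other sorts, with -1.28 for Runx+ minus kdrl+ (adjusted p = 0.00111, limma) and -1.57 for kdrl+ minus negative cells (adjusted p = 0.000257). hbae3 took the same middle place, at 10.78, 10.71 and 11.27. alas2 read 5.06, 5.13 and 5.31, and its difference of -0.55 between Runx+ and kdrl+ cells did not pass (adjusted p = 0.0689, limma).

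Photoreceptor genes were at similar levels in kdrl+ and negative cells. The median of kdrl+ minus negative cells was 0.08 for cone and -0.07 for rod genes. In that contrast 1 cone gene was called lower and no rod gene was called. Of all genes, 13.6% were called lower and 10.5% higher. Against kdrl+ cells, 14 of 22 cone genes, 18 of 22 rod genes and 13 of 19 shared genes were higher in Runx+ cells, where 15.8% of all genes were. This was not particular to photoreceptor genes. Also higher were 30 of 33 neural, 30 of 37 fast muscle, 28 of 34 epidermal and epithelial and 27 of 34 lens genes. By contrast, 0 of 40 endothelial and 0 of 23 HSPC genes were higher. pde6c read 7.71, 6.51 and 7.37 in kdrl+ cells and overlapped with the negative arrays. cxcl20 had another order, with 8.48, 8.22 and 8.32 in kdrl+ cells, the highest of the 3 sorts, and a Runx+ minus kdrl+ difference of -2.39 (adjusted p = 1.1e-06, limma). Of CD164L2 the kdrl+ arrays held least, 4.82, 5.17 and 5.33.

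The same 2 sorts in DMSO asked whether these differences were also there without Lycorine. The DMSO arrays are separate from the Lycorine arrays, and their difference was taken from a fit to all 18 arrays. That fit has 1 estimate of the spread per gene for both treatments. The Lycorine arrays spread less, so the SE and p given for DMSO can be too small. They are not on the same footing as those of the fit to the Lycorine arrays. In DMSO 1 gene (0.0052%) passed, mhc1haa, with 1.72 ± 0.23 (adjusted p = 0.0113, limma). In that same fit the comparison under Lycorine called 0 genes higher and 2 lower, so this count is not to be set against the 33. Of the 33 genes called under Lycorine, 32 had the same sign in DMSO (25 of 26 higher and 7 of 7 lower), against 66.1% of all genes. The exception was si:dkey-21e13.3, at 1.14 under Lycorine and -0.05 in DMSO. The median difference of the 26 higher genes was 1.36 under Lycorine and 1.00 in DMSO, and that of the 7 lower genes -1.55 and -1.28. These genes were picked on the Lycorine arrays, which by itself tends to make the Lycorine values the larger ones. The groups did not overlap in DMSO, in the same direction, for 5 of the 33. Among the 26 higher genes these were myhz1.1 and CD164L2, where 4.77% of all genes were higher with no overlap. Among the 7 lower genes they were hbbe2, hbae3 and hbae1.1, where 6.14% of all genes were lower with no overlap. Over all 19247 genes, which are not independent, Pearson's r between the differences under Lycorine and in DMSO was 0.59.

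hbbe2 in DMSO read 9.94, 9.34 and 10.66 in Runx+ and 12.38, 11.44 and 11.17 in negative cells, a difference of -1.69 ± 0.37 (adjusted p = 0.103, limma). The groups were separate but each spread more than under Lycorine, and the SE rests on the spread shared with the Lycorine arrays. myhz1.1 read 8.78, 9.39 and 9.20 against 7.32, 7.71 and 6.88, a difference of 1.82 ± 0.41 (adjusted p = 0.111, limma), close to that under Lycorine. pde6c in DMSO read 8.49, 9.49 and 7.56 in Runx+ and 6.06, 8.79 and 7.18 in negative cells, and the groups overlapped. The cone list as a whole did the same, with mean levels of 8.49, 8.28 and 7.13 in Runx+ and 6.55, 8.01 and 7.09 in negative cells. DMSO Runx+ replicate 3 was low and DMSO negative replicate 2 was high. The DMSO kdrl+ arrays were likewise highest in replicate 2 (7.68) and lowest in replicate 3 (6.16). Between arrays of the same number, the Runx+ mean was above the negative mean each time, in replicate 3 only just. In DMSO 20 of 22 cone genes and 21 of 22 rod genes were positive, with medians of 0.81 and 0.87. Higher in DMSO with no overlap were 0 of 22 cone genes and 2 of 22 rod genes, against 4.77% of all genes.

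Red cell genes also varied within DMSO. The globin list had mean levels of 6.91, 6.52 and 7.05 in Runx+ and 8.44, 7.45 and 7.23 in negative cells, and alas2 reached 9.29 in negative replicate 1 against 5.99 and 5.64 in replicates 2 and 3. The globins had a median difference of -0.92 in DMSO, with hbba2 and hbaa2 at 0.00, and 3 of the 7 measured were lower with no overlap, as were 6.14% of all genes. The mesenchyme list was negative for 29 of 30 genes (median -0.78), the fast muscle list positive for 35 of 37 (median 0.64) and the neural list negative for 28 of 33 (median -0.55).

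**Figure D4:**
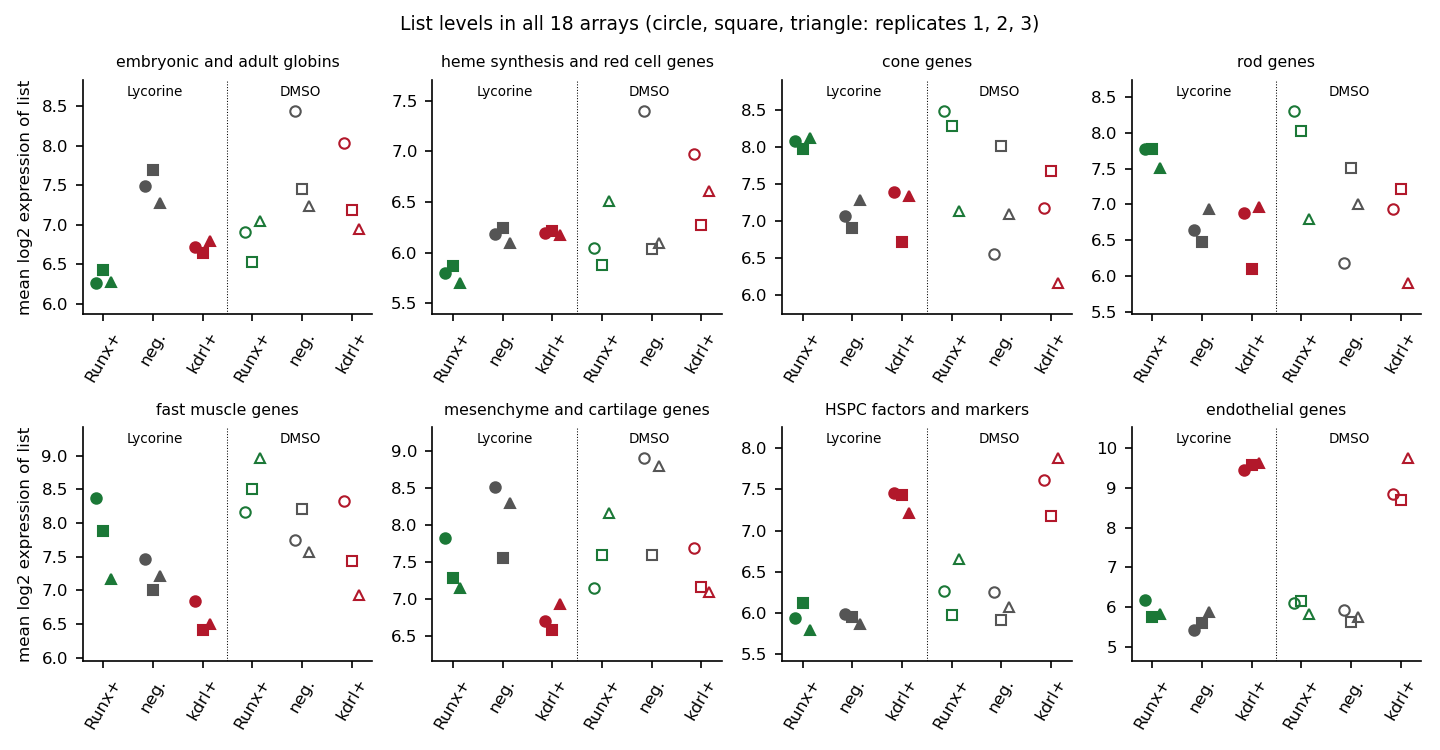
Mean log2 expression of 8 gene lists (y axis) in each of the 18 arrays, by sort and treatment (x axis), filled symbols for Lycorine and open ones for DMSO. The cone and rod lists separated Runx+ from negative arrays under Lycorine and overlapped in DMSO, and the HSPC and endothelial lists were higher in every kdrl+ array than in any Runx+ or negative array.

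A test of the difference between treatments found no gene. In the fit to 18 arrays, 0 of 19247 genes passed for the Lycorine minus DMSO change of the Runx+ minus negative difference (limma), the smallest adjusted p was 1, and 321 genes (1.67%) had an unadjusted p under 0.05. That share is below the 0.05 to be looked for in p-values where no gene changes, and the reason was not tested. The median SE of this double difference was 0.383, so changes of a size seen here could go undetected. The 5 genes of smallest p had values further from 0 in DMSO than under Lycorine, and none of them passed in either treatment. bmpr1bb, a BMP receptor, was at 0.24 under Lycorine and -1.35 in DMSO (unadjusted p = 0.00061, limma). zbtb25 was at -0.01 and -1.05, wu:fi75a02 at 0.11 and -0.93, the paraoxonase pon1 at -0.13 and 1.09, and the protocadherin pcdh1g2 at -0.09 and -1.24. mhc1haa was at 0.64 and 1.72 (unadjusted p = 0.00335, limma).

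Of the 33 genes called under Lycorine, 3 had an unadjusted p under 0.05 for the change between treatments (limma), against 1.67% of all genes. The 33 were picked for large differences in the Lycorine arrays, which also enter the change. That choice by itself pushes their change away from 0, so this count does not show that they depend on treatment. nfil3-6 differed by 1.63 under Lycorine and 0.34 in DMSO (unadjusted p = 0.0152, limma), cxcl20 by 1.34 and 0.05 (unadjusted p = 0.0209) and hbbe2 by -2.85 and -1.69 (unadjusted p = 0.0394). None passed the adjustment. itga2b was at 1.09 under Lycorine and 2.18 ± 0.39 in DMSO, where it read 7.21, 5.93 and 6.90 in Runx+ and 4.53, 4.54 and 4.44 in negative cells, and the change had an unadjusted p of 0.0624 (limma). None of the cone, rod or shared photoreceptor genes had an unadjusted p under 0.05 for the change (limma), against 1.67% of all genes. The SE of the change was 0.86 for pde6c and 0.82 for prph2b, against a median of 0.383 over all genes. The absence of such genes therefore does not show that the photoreceptor differences were equal in both treatments.

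**Figure D5:**
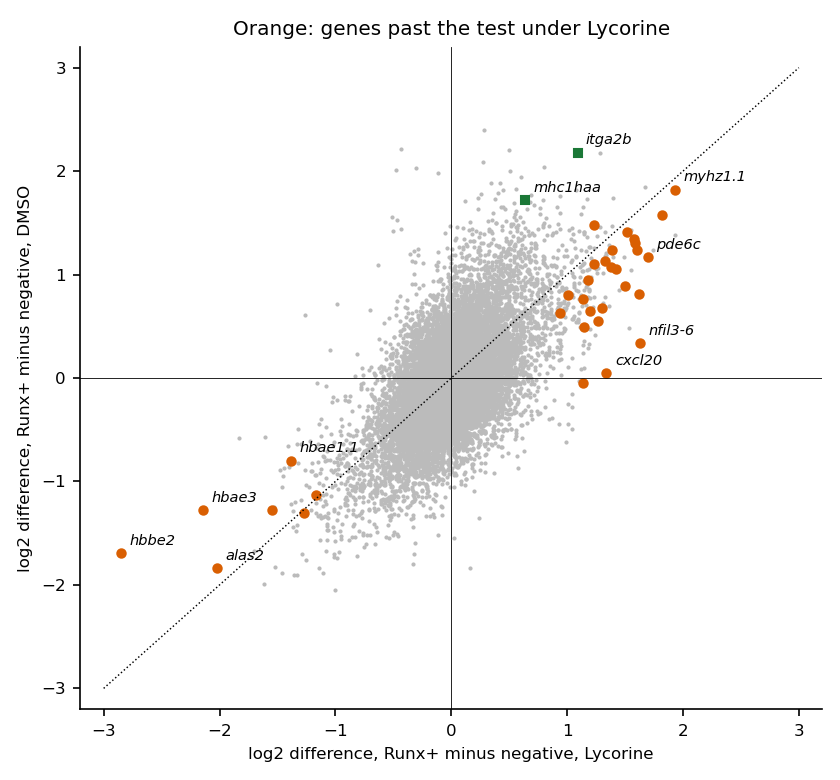
Log2 difference of Runx+ minus negative cells in DMSO (y axis) against that under Lycorine (x axis) for 19247 genes, with the 33 genes past the test under Lycorine in orange, itga2b and mhc1haa as squares and the line of equality dotted. All orange points but si:dkey-21e13.3 had the same sign on both axes, and nfil3-6 and cxcl20 lay near 0 in DMSO.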

How the data were processed

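The authors deposited a table of log2 values for 65528 probe rows on 18 arrays. oligo, RMA and limma are named, without versions, in the submitters' processing notes, and the log2 values are taken as RMA output. Rows with exactly 1 gene symbol (20806) were used, against 855 with several and 43867 with none. Symbols were updated through a RefSeq gene table (by Entrez identifier for 20323, current symbol for 72 and synonym for 43), while 368 stayed as annotated. For 1372 genes with several rows, the row of highest mean over the 18 arrays was taken. The most alike pair of arrays correlated at 0.984 and no array was a copy of another. The table has no detection calls and dim genes were not filtered.

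limma 3.58.1 in R 4.3.3 fitted 3 group means to the 9 Lycorine arrays (12.5 total degrees of freedom, 2-sided, threshold 0.05), and 6 group means to all 18 arrays for DMSO and for the change between treatments. The number of arrays limits the precision. The scripts were tested on simulated data. Python 3.11.15, pandas 2.3.3 and matplotlib 3.10.9 were used for tables and figures.

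Members and lists were chosen with earlier results of these data known. The 29 lists hold 793 entries, of which 712 were measured. They were described by counts and medians without a list test. Named genes were the 15 largest rises and falls past the threshold with no overlap, the 5 of smallest p in each direction, 7 marker genes, up to 4 called members of each list or else the one of largest moderated t, the 5 of smallest p for the change between treatments, and globins and cone genes as whole lists. Further HSPC markers were named for the label check, and other genes outside this rule were chosen after their values were seen. Alternatives covered the arrays fitted, a replicate block, array weights, variance moderation, 3 normalizations, a brightness filter, the row per gene and each array left out. Same-numbered Runx+ and negative arrays deviated from their group means with correlations of 0.33, -0.15 and -0.36, so the main fit took no pairs. These values over all genes do not exclude that single genes followed the replicate number. For example, cxcl12a was highest in replicate 1 and lowest in replicate 2 in all 3 Lycorine sorts. Replicate 2 was also the lowest of each sort for pde6c, prph2b and the mean of the cone list. A fit without pairs leaves such shared spread in the error, so the main fit can call too few of these genes. The replicate block called 101 genes higher and 47 lower. With it 9 cone and 5 rod genes were called, against 5 and 0 in the main fit.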

Additional observations from a re-analysis of the deposited data

How the results depend on the processing

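Of 26 genes higher and 7 lower, the counts were 40 and 8 in a fit to the 6 arrays compared and 0 and 2 in a fit to all 18, which pools the wider DMSO spread. They were 101 and 47 with the replicate block, 181 and 72 with array weights, 74 and 17 with arrays centred on their median, 28 and 13 with cyclic loess (68.3% higher, against 78.8%) and 51 and 18 with a second quantile normalization. Trend with robust moderation, brighter genes and both other choices of row kept both counts within 1.5 times. The cause of the gains was not tested. Leaving out 1 array gave 0 to 11 higher and 3 to 18 lower. hbbe2 and hbae3 passed under all 17 alternatives, with adjusted p of 7.38e-05 to 0.0101 and 0.000445 to 0.0355 (limma), and pde6c in 9 of 17 and myhz1.1 in 11 of 17. Differences of the called genes kept their sign throughout. runx1, near 0, lay between -0.13 and 0.16 when 1 array was left out and went to 0 with quantile normalization, -0.05 without Lycorine Runx+ replicate 2 and -0.13 without Lycorine negative replicate 1. The change between treatments gave 0 genes under every alternative run, with a smallest adjusted p of 0.217 without DMSO Runx+ replicate 1. The median difference of the globin list was -2.14 among brighter genes. This is the value of hbae3, the middle one of the 3 called members, since the dimmer members no longer entered. Whether dim genes were above background is unknown, since the table has no detection calls.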
